A study of Mus musculus with 9 samples.

Results

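The 10 genes described here encode the classical MHC class II chains H2-Aa, H2-Ab1 and H2-Eb1, the invariant chain Cd74, the coactivator Ciita, the peptide exchange factor H2-DM (H2-DMa, H2-DMb1 and H2-DMb2) and its inhibitor H2-O (H2-Oa and H2-Ob). They were taken by symbol from a table of estimated RNA counts that lists 46517 genes, and all 10 had enough counts to be tested. The cells were wild-type C57BL/6 primary monocytes obtained in vitro, and the sample labels name no further allele or agent. The labels give 3 subsets, conventional (cMo), intermediate (intMo) and patrolling (pMo) monocytes, each with 3 libraries numbered 0, 1 and 2. The series title speaks of bone marrow cells cultured on OP9-DLL1, stromal cells with a Notch ligand, which the sample labels do not mention. The sources used here give neither the sorting gates nor whether the libraries of a subset are separate cultures or animals, so the p-values measure only the spread between these libraries.

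MHC class II molecules present peptides from endocytic compartments to CD4+ T cells. Their alpha and beta chains assemble with the invariant chain, which is cut in endosomes to a fragment that H2-DM releases so that other peptides can bind, while H2-O binds H2-DM and holds it back. CIITA switches these genes on without touching DNA itself, by docking on factors bound to a conserved row of promoter boxes. Dendritic cells and B cells are the best known class II carriers, and part of the Ly6C-intermediate monocytes of mouse blood carry it as well. C57BL/6 mice transcribe H2-Eb1 but make no I-E alpha chain to pair with it, because the promoter of that gene is deleted in this strain.

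Promoter letters of some members are shown first, since class II genes are known to share these boxes and most members differed between subsets in the same direction. Each line gives 65 bases from the window before a RefSeq gene start (GRCm38.p6), with GATTGG, the letters of the Y box, in capitals at the right, and GCAAC or AAC and ATGATG with 2 free bases between them, letters of the X box region, in capitals at the left. Where both of the latter occur they overlap in the letters AAC.
H2-Aa, chr17:34287863-34287927, minus strand: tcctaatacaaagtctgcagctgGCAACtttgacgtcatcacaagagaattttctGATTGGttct
H2-Eb1, chr17:34305752-34305816, plus strand: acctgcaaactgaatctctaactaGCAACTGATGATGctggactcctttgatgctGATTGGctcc
H2-DMb2, chr17:34145103-34145167, plus strand: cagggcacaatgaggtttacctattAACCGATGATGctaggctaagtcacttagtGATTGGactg
H2-Ob, chr17:34238792-34238856, plus strand: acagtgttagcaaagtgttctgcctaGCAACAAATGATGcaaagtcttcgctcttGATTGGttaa
H2-Eb2, chr17:34325519-34325583, plus strand: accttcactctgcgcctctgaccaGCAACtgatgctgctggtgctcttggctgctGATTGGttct

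H2-Eb2, a class II beta chain gene next to H2-Eb1 that is not a member, is shown because its levels took another course than those of the classical chains. In the stretches shown, the X-side letters begin 29 to 32 bases before the Y box letters. Of the 10 members, 7 had a RefSeq window, and H2-Ab1, Cd74 and Ciita had none in the table used. GATTGG occurred in all 7, on either strand and anywhere from 250 bases before to 50 bases after at least 1 listed start, against 18.2% of 27025 genes with a window. AAC and ATGATG in that spacing occurred in 4 of the 7 against 0.159% of genes, and GCAAC in 5 of the 7 against 38.6%. That spaced motif stood before GATTGG on the same strand in 5 genes of the whole table, of which H2-Eb1, H2-DMb1, H2-DMb2 and H2-Ob are members and the other is Olfr582, an odorant receptor gene. The letters were chosen after these promoters had been read, so the shares describe the sequences and are no test, and a match is not a bound site. Of the stretches shown, that of H2-DMb2 lies inside an intron of a longer annotated transcript of the gene, and the others overlap no annotated exon. The stretches of H2-DMb1 and H2-Oa each overlap an annotated exon of their own gene and are not shown. No such stretch was obtained for H2-DMa, which had GATTGG in 1 of its 2 windows and GCAAC in 1.

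On chromosome 17 of GRCm38 the class II members follow one another from H2-Oa (34092340 to 34095234) over H2-DMa (34119541 to 34139101), H2-DMb2 (34143307 to 34151555), H2-DMb1 (34153072 to 34160230) and H2-Ob (34238903 to 34254414) to H2-Ab1 (34257689 to 34269419), H2-Aa (34282744 to 34287823) and H2-Eb1 (34305867 to 34316674). H2-Eb2 comes next (34325665 to 34341412). Ciita lies on chromosome 16 (10480059 to 10528418) and Cd74 on chromosome 18 (60803848 to 60812652). All are annotated as protein coding. H2-DMb1 and H2-DMb2 are near copies, and 31.37% and 36.42% of their 31-base words in the annotated transcripts occur in another gene, so the split of reads between them is uncertain. For each of the other members that share was at most 1.41%.

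Library totals ran from 18455008 to 29985563 estimated counts, and 14059 genes were tested. Levels are given in CPM, the counts relative to the scaled size of the library. A gene was called at an edgeR adjusted p under 0.05, with the adjustment over all genes tested. The subset labels were checked against monocyte genes. Csf1r and Itgam, a growth factor receptor and an integrin of the myeloid lineage, were present in every library at 692 CPM or more, Ly6c2 was at 1038 to 1401 CPM in cMo against 8.71 to 75.5 CPM in pMo, and Ace, an enzyme of patrolling monocytes, was at 0.324 to 1.3 CPM in cMo against 936 to 2143 CPM in pMo. In intMo libraries 0, 1 and 2 Ly6c2 was at 24.5, 256 and 207 CPM, and Ace at 35.4, 54.2 and 66.3 CPM. Not every monocyte gene placed intMo between the other subsets. Spn was at 57.2 to 129 CPM in intMo, below both cMo (227 to 332 CPM) and pMo (504 to 619 CPM). Cx3cr1 was not called between intMo and cMo. In intMo and pMo library 0 was the highest of its subset for every member, and in cMo it was the lowest for all but H2-DMb2, by little for H2-Oa. The changes of the members are therefore given with and without the libraries numbered 0. For other genes the fit without these libraries is given in places only. It changed further calls that are not named, among them some of the cell markers.

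The members took 0.0283%, 0.113% and 0.115% of all counts in cMo libraries 0, 1 and 2. They took 1.63%, 0.558% and 0.545% in intMo and 0.96%, 0.245% and 0.244% in pMo, in the same order. Every intMo and pMo library thus held a larger share than every cMo library, and within a number intMo held more than pMo. The direction of library 0 was not the same in the subsets, as it was the lowest of the cMo libraries and the highest of intMo and of pMo. Cd74 alone made up 27.5% to 50.4% of the member counts.

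H2-Aa, the alpha chain of the I-A molecule, had 13, 118 and 145 CPM in cMo libraries 0, 1 and 2. In intMo it had 2692, 1043 and 885 CPM, and in pMo 1651, 405 and 424 CPM. The cMo libraries lay below all others, while the ranges of intMo and pMo overlapped because pMo library 0 exceeded intMo libraries 1 and 2. H2-Ab1, its beta chain partner, followed the same order of libraries with 12.9, 96.3 and 111 CPM in cMo, 2654, 806 and 790 CPM in intMo, and 1622, 290 and 294 CPM in pMo. H2-Eb1, the beta chain that lacks its alpha partner in this strain, had 7.27, 68.9 and 80.1 CPM in cMo, 2140, 676 and 643 CPM in intMo, and 1511, 253 and 235 CPM in pMo. All these chains had intMo library 0 highest, pMo library 0 second and cMo library 0 lowest.

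Cd74, the invariant chain that guides class II to endosomes and blocks its groove on the way, had 76, 527 and 506 CPM in cMo. It had 7414, 2445 and 2478 CPM in intMo and 4374, 1298 and 1264 CPM in pMo. Ciita, the coactivator, had 7.34, 28.5 and 24.4 CPM in cMo, 402, 121 and 134 CPM in intMo, and 249, 63.7 and 55.3 CPM in pMo. Both were higher in every intMo and pMo library than in any cMo library, and both were again highest in intMo library 0.

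**Figure D1:**
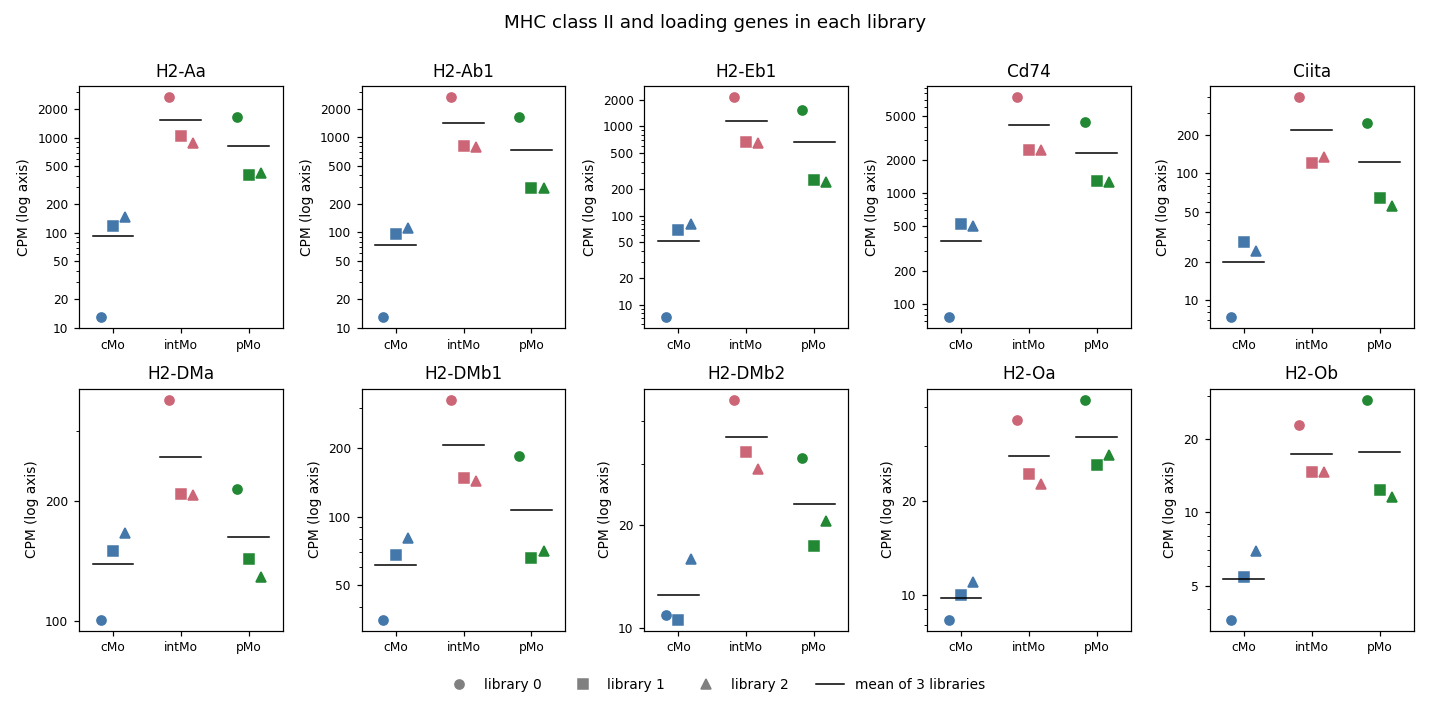
CPM of each of the 10 members on a log axis, with 1 point per library, a different marker for libraries 0, 1 and 2, and a line at the mean of the 3 libraries of a subset. For H2-Aa, H2-Ab1, H2-Eb1, Cd74 and Ciita the circle of library 0 is lowest in cMo and highest in intMo and pMo, and for H2-Oa and H2-Ob the highest point of all is pMo library 0.

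H2-DMa, the alpha chain of the peptide exchange factor, spanned a narrower range, with 101, 150 and 167 CPM in cMo, 360, 209 and 207 CPM in intMo, and 215, 143 and 129 CPM in pMo. H2-DMb1, the more abundant of its beta chain genes, had 35.4, 68.1 and 80.6 CPM in cMo, 326, 148 and 143 CPM in intMo, and 184, 65.6 and 70.9 CPM in pMo. H2-DMb2 had 10.9, 10.6 and 15.9 CPM in cMo, 46.2, 32.5 and 29.1 CPM in intMo, and 31.3, 17.3 and 20.5 CPM in pMo. For H2-DMa and H2-DMb1 the pMo libraries 1 and 2 lay among those of cMo, whereas for H2-DMb2 every pMo library exceeded every cMo library.

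H2-Oa, the alpha chain of the inhibitor of H2-DM, had 8.35, 10 and 11 CPM in cMo, 36.2, 24.3 and 22.6 CPM in intMo, and 42.1, 26.1 and 28 CPM in pMo. H2-Ob, its beta chain, had 3.63, 5.45 and 6.95 CPM in cMo, 22.8, 14.6 and 14.6 CPM in intMo, and 29.1, 12.4 and 11.6 CPM in pMo. These genes had pMo library 0 as their highest library. H2-Oa was higher in pMo than in intMo at each number, and H2-Ob only at number 0.

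Per kilobase of the longest coding transcript, the mean level in intMo was highest for Cd74, at 2916 ± 2028 CPM per kb (SD, n = 3). H2-Aa followed at 1365 ± 887, H2-Ab1 at 1169 ± 884 and H2-Eb1 at 691 ± 512 CPM per kb. H2-DMb1 (146 ± 74.1) and H2-DMa (129 ± 43.8) came next, then Ciita (36.5 ± 26.3), H2-Oa (25.5 ± 6.8), H2-DMb2 (24.2 ± 6.08) and H2-Ob (6.49 ± 1.77). Neighbours in this order overlapped within 1 SD, apart from the steps from H2-DMa to Ciita and from H2-DMb2 to H2-Ob. In cMo, Cd74 again led at 262 ± 180 CPM per kb, but H2-DMa (69.5 ± 17) stood beside H2-Aa (81.5 ± 61.7) and H2-Ab1 (60.7 ± 43.8), with H2-Eb1 at 31.2 ± 23.5. In pMo, H2-Oa (29.5 ± 8.06) had a mean level per length above that of Ciita (20.4 ± 18.2) and H2-DMb2 (15.5 ± 4.93), differences within the spread for Ciita and beyond it for H2-DMb2.

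Intermediate monocytes had more of nearly all class II RNA than conventional monocytes. Of the 10 members 9 were called higher in intMo and none lower, where 14% of all genes tested were called higher. All 10 had every intMo library above every cMo library, as did 21.2% of all genes tested. The median log2 change over the members was 2.59, against -0.01 over all genes.

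The largest changes were those of the classical chains. H2-Eb1 rose 22.1-fold (log2 4.47 ± 1.10 SE, edgeR adjusted p = 0.0186), H2-Ab1 19.3-fold (log2 4.27 ± 1.03, edgeR adjusted p = 0.0173) and H2-Aa 16.8-fold (log2 4.07 ± 0.96, edgeR adjusted p = 0.0157). Cd74 rose 11.1-fold (log2 3.48 ± 0.84, edgeR adjusted p = 0.0178) and Ciita 10.9-fold (log2 3.45 ± 0.79, edgeR adjusted p = 0.0142). The fitted changes of the genes of peptide editing were smaller, a difference between genes that was not tested. H2-DMb1 (log2 1.74 ± 0.50, edgeR adjusted p = 0.0345), H2-DMb2 (log2 1.53 ± 0.28, edgeR adjusted p = 0.00503), H2-Oa (log2 1.50 ± 0.25, edgeR adjusted p = 0.00305) and H2-Ob (log2 1.70 ± 0.40, edgeR adjusted p = 0.0154) rose between 2.82-fold and 3.35-fold. H2-DMa, at log2 0.89 ± 0.29, missed the threshold (edgeR adjusted p = 0.0513, and 0.0409 to 0.162 on leaving out 1 library).

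The size of the rise depended on the libraries numbered 0. With libraries 1 and 2 alone all 10 members were called higher, as were 15.8% of the genes tested in that fit, but with smaller changes, whose median was 1.75. H2-Aa changed by 2.88 ± 0.15, H2-Ab1 by 2.95 ± 0.12, H2-Eb1 by 3.15 ± 0.13, Cd74 by 2.26 ± 0.11 and Ciita by 2.28 ± 0.14 (log2 ± SE), and H2-DMa by 0.40 ± 0.11. Leaving out any 1 library left between 7 and 10 members called. The call of H2-DMb1 ended if intMo 0 or any 1 of the cMo libraries was left out, with log2 changes of 1.25 to 1.99 and edgeR adjusted p up to 0.110. That of H2-Ob was lost without cMo 0 (log2 1.48, edgeR adjusted p = 0.0506, the highest when any 1 library was left out). Without a filter on low counts 5 members were called, H2-Aa, Ciita, H2-DMb2, H2-Oa and H2-Ob. Shares of all genes called without this filter, or with 1 library left out, are not given.

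**Figure D2:**
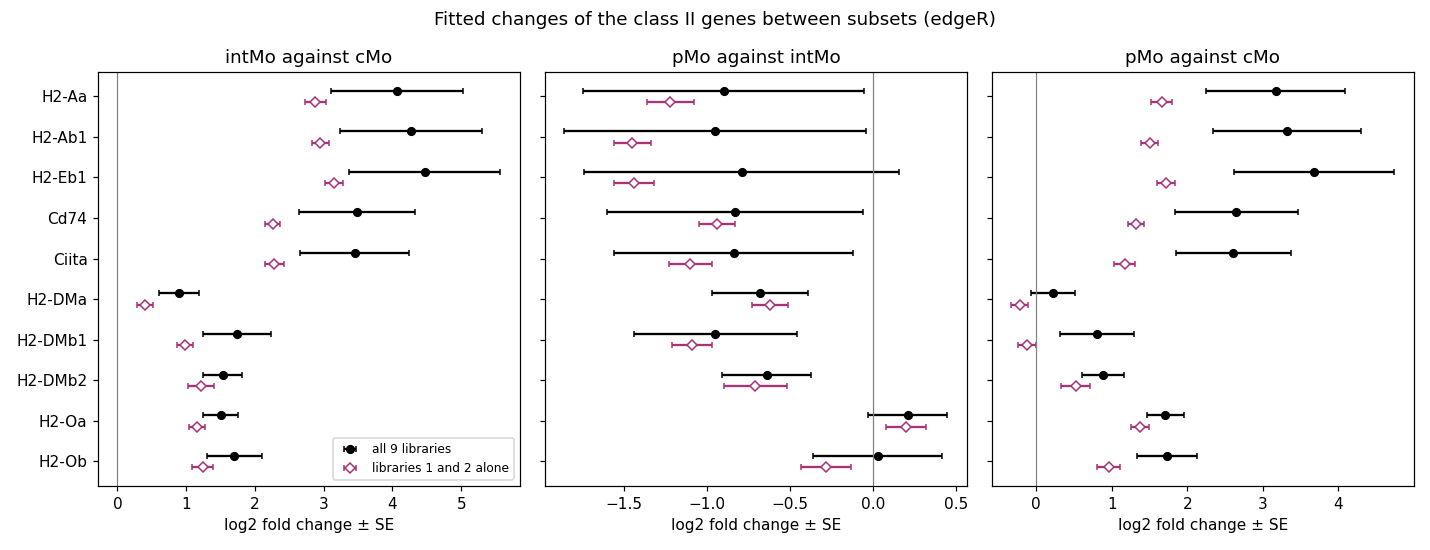
Log2 fold changes of the 10 members in the 3 comparisons with bars of 1 SE, from the fit to all 9 libraries (filled circles) and to libraries 1 and 2 of each subset (open diamonds). In intMo against cMo every point lies above 0, and in pMo against intMo the diamonds of 8 members lie between -1.45 and -0.62 while the error bars of the circles are wide.

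Between patrolling and intermediate monocytes the fitted changes of 8 members were negative, and whether they were called depended on the libraries and the block used in the fit. In the fit to all 9 libraries, which pairs none, edgeR called 0 of 10, DESeq2 called 0 of the 9 for which it gave an adjusted p, and 2 of 10 had an unadjusted edgeR p under 0.05, where 4.99% of all genes tested were called in either direction. No member had its pMo libraries all above or all below those of intMo, an arrangement found for 27.7% of all genes tested. The fitted log2 changes were -0.90 ± 0.85 for H2-Aa (edgeR adjusted p = 0.668), -0.95 ± 0.91 for H2-Ab1, -0.79 ± 0.95 for H2-Eb1, -0.83 ± 0.77 for Cd74 and -0.84 ± 0.72 for Ciita. They were -0.68 ± 0.29 for H2-DMa, -0.95 ± 0.49 for H2-DMb1 and -0.64 ± 0.27 for H2-DMb2 (edgeR adjusted p = 0.25, 0.356 and 0.247). H2-Oa (0.21 ± 0.24) and H2-Ob (0.03 ± 0.39) lay near 0.

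Libraries numbered 0 deviated together in intMo and pMo. Libraries 1 and 2 resembled each other across numbers as much as within them, so their pairing rests on the labels alone. With this limit the libraries were also compared number by number. At all 3 numbers 8 members were lower in pMo and 1, H2-Oa, was higher. The share of all genes with the same sign at all 3 numbers is not given, so this count only describes the members. H2-Ab1 differed by -0.71, -1.48 and -1.43 on the log2 scale at numbers 0, 1 and 2, Cd74 by -0.76, -0.91 and -0.97, and H2-DMa by -0.75, -0.55 and -0.69. An edgeR fit to the 6 intMo and pMo libraries with the number as a block, added after the data were seen, called these 8 members lower, where 9.99% of the genes tested in it were called lower. H2-Ab1 fell by 1.22 ± 0.16, H2-Eb1 by 1.14 ± 0.20, H2-Aa by 1.06 ± 0.13, Ciita by 0.98 ± 0.13 and Cd74 by 0.90 ± 0.10 on the log2 scale. H2-DMb1 fell by 1.02 ± 0.11, H2-DMa by 0.68 ± 0.10 and H2-DMb2 by 0.67 ± 0.13, and the edgeR adjusted p of the 8 ran from 0.000293 to 0.0103. H2-Oa (0.19 ± 0.12) and H2-Ob (-0.08 ± 0.16) were not called. A block over all 9 libraries, which also ties in the cMo libraries, called 0.

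With libraries 1 and 2 alone, 8 of the 10 members were called lower in pMo, where 9.67% of the genes tested in that fit were called lower. H2-Ab1 changed by -1.45 ± 0.11, H2-Eb1 by -1.44 ± 0.12, H2-Aa by -1.22 ± 0.14, Ciita by -1.10 ± 0.13 and Cd74 by -0.94 ± 0.11 (log2 ± SE). H2-DMb1 changed by -1.09 ± 0.12, H2-DMb2 by -0.71 ± 0.19 and H2-DMa by -0.62 ± 0.11. The edgeR adjusted p of these 8 ran from 0.000194 to 0.0378. H2-Oa (0.20 ± 0.12) and H2-Ob (-0.28 ± 0.15) were not called in that fit either. The median over the members was -1.02 with these libraries, -0.94 in the paired fit and -0.81 with all 9. The fit to libraries 1 and 2 has 2 libraries per subset that resemble each other, and its calls are not independent of those of the other fits.

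The same genes compared between patrolling and conventional monocytes gave 8 of 10 called higher in pMo, against 17.2% of all genes tested. All pMo libraries exceeded all cMo libraries for these 8 members, and for 26% of all genes tested. H2-Eb1 (log2 3.68 ± 1.06, edgeR adjusted p = 0.026), H2-Ab1 (3.32 ± 0.98, 0.0293), H2-Aa (3.17 ± 0.92, 0.0269), Cd74 (2.65 ± 0.81, 0.0339) and Ciita (2.61 ± 0.76, 0.0281) rose together with H2-DMb2 (0.88 ± 0.28, 0.0351), H2-Oa (1.71 ± 0.25, 0.00114) and H2-Ob (1.73 ± 0.40, 0.0101). H2-DMa (0.22 ± 0.29, 0.594) and H2-DMb1 (0.80 ± 0.49, 0.246) were not called, each pair of values being the log2 change with its SE and the edgeR adjusted p.

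This count depended on the fit and on single libraries. With all 9 libraries it was 3, H2-DMb2, H2-Oa and H2-Ob, both without a filter on low counts and with the library number as a block, where the edgeR adjusted p of H2-Aa, H2-Ab1, H2-Eb1, Cd74 and Ciita ran from 0.0784 to 0.102. Without pMo 0 it was 2, without cMo 0 or cMo 1 it was 3, and without cMo 2 it was 4, and H2-Oa and H2-Ob were called in each of these fits. Shares of all genes are not given for the fits with no filter, with the block or without 1 library. With libraries 1 and 2 alone 7 members were called, all but H2-DMa, H2-DMb1 and H2-DMb2, where 19.7% of genes tested were called higher. The changes then were 1.72 ± 0.12 for H2-Eb1, 1.66 ± 0.14 for H2-Aa, 1.50 ± 0.11 for H2-Ab1, 1.32 ± 0.11 for Cd74, 1.17 ± 0.14 for Ciita, 1.37 ± 0.12 for H2-Oa and 0.96 ± 0.15 for H2-Ob (log2 ± SE). A test for a difference between any of the subsets called 8 of 10 members, against 33% of all genes tested, with H2-DMa (edgeR adjusted p = 0.0721) and H2-DMb1 (0.0562) outside the threshold. That count was 4 without cMo 0, 2 without cMo 1 and 3 without cMo 2.

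The balance between H2-O and H2-DM, taken as the counts of H2-Oa and H2-Ob over those of H2-DMa, H2-DMb1 and H2-DMb2, varied less between library numbers than the single genes did. It was 0.0812, 0.0678 and 0.0681 in cMo libraries 0, 1 and 2, 0.0806, 0.0999 and 0.0981 in intMo, and 0.166, 0.171 and 0.18 in pMo. All pMo libraries lay above all others, while intMo and cMo overlapped. The means were 0.0724 ± 0.00764 in cMo, 0.0929 ± 0.0107 in intMo and 0.172 ± 0.00719 in pMo (SD, n = 3). On the log2 scale the ratio was higher in pMo than in intMo by 0.90 (1.86-fold, exact two-sided permutation p = 0.10) and than in cMo by 1.26 (2.39-fold, exact permutation p = 0.10), and intMo exceeded cMo by 0.36 (exact permutation p = 0.20). With 3 libraries against 3 the smallest p possible is 0.10, so no difference of this kind can pass 0.05, and adjusted over the 3 comparisons the values were 0.15, 0.15 and 0.20. Summing both beta chain genes makes the ratio independent of how reads were split between H2-DMb1 and H2-DMb2. Per kilobase the ratio was 0.084 to 0.109 in cMo, 0.0944 to 0.12 in intMo and 0.192 to 0.234 in pMo.

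**Figure D3:**
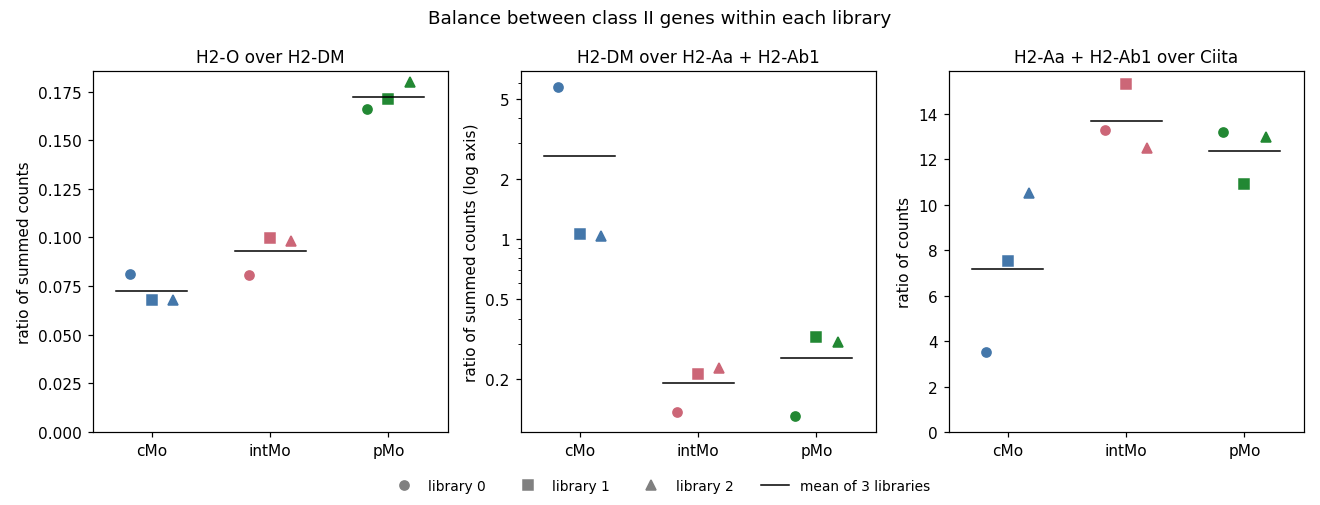
Ratios of counts between class II genes within each library, with 1 point per library, markers for library numbers and a line at the subset mean. The H2-O over H2-DM ratio of the 3 pMo libraries (0.166 to 0.18) lies above that of the 6 others (0.0678 to 0.0999), and the H2-DM over H2-Aa and H2-Ab1 ratio, on a log axis, is highest in cMo.

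Other proportions changed between the subsets as well. The counts of H2-DM over those of H2-Aa and H2-Ab1 were 5.71, 1.06 and 1.03 in cMo, 0.137, 0.211 and 0.227 in intMo, and 0.131, 0.324 and 0.307 in pMo, so cMo had the most of the exchange factor for each classical chain. The counts of H2-Aa and H2-Ab1 for each count of Ciita were 3.52, 7.52 and 10.5 in cMo, below all intMo (12.5 to 15.3) and pMo (10.9 to 13.2) libraries. Cd74 for each count of H2-Aa and H2-Ab1 was 1.97 to 2.94 in cMo, 1.32 to 1.48 in intMo and 1.34 to 1.87 in pMo. H2-DMa for each count of H2-DMb1 and H2-DMb2 was 1.73 to 2.19 in cMo, 0.968 to 1.2 in intMo and 0.998 to 1.72 in pMo. In contrast, H2-Aa over H2-Ab1 stayed between 1.01 and 1.44 in the 9 libraries, with overlapping ranges. These proportions were not tested.

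H2-Eb2, the beta chain gene beside H2-Eb1, had a course of its own. It was at 0, 0 and 0.144 CPM in cMo, where it had 0, 0 and 4 counts, at 12.8, 6.11 and 4.47 CPM in intMo and at 62.8, 20.1 and 20.2 CPM in pMo. It was thus close to absent from cMo and higher in every pMo library than in any intMo library, where the classical chains were lower in pMo than in intMo at each number. The change from cMo to intMo was 7.20 ± 0.98 (log2, edgeR adjusted p = 0.00131) and from cMo to pMo 9.35 ± 0.99 (edgeR adjusted p = 0.000258), sizes that depend on the handling of the zero counts. Between pMo and intMo it was 2.15 ± 0.61 and not called (edgeR adjusted p = 0.0856). It was called by DESeq2, in the paired fit to intMo and pMo (log2 2.05 ± 0.15), with the block over all 9 libraries (log2 2.06, edgeR adjusted p = 0.0367) and with libraries 1 and 2 alone (log2 1.93 ± 0.26), and over the fits without 1 library the adjusted p ran from 0.0432 to 0.253. H2-Ea-ps, the I-E alpha gene, was not tested and had 0 to 6 counts per library.

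The counts called in the gene lists that follow stand beside shares over all genes tested. In edgeR with all 9 libraries 14% were called higher in intMo than in cMo. The share was 4.99% in either direction between pMo and intMo, and 17.2% higher in pMo than in cMo. The paired fit called 9.99% lower in pMo than in intMo. Shares called lower against cMo are not given, nor are shares called higher in the paired fit or called by DESeq2. The counts were not tested against any share. Genes of the class II region that are not class II genes serve other tasks, such as class I loading. Of 6 such genes, 2 were higher in intMo than in cMo, 0 lower and 4 not called, with a median log2 of 0.48. They were Tap1, a subunit of the transporter that feeds peptides to class I (log2 0.77 ± 0.12, edgeR adjusted p = 0.00281), and Psmb9, a subunit of the immunoproteasome (log2 0.51 ± 0.13, edgeR adjusted p = 0.0223, lost without cMo 1, intMo 1 or intMo 2 at up to 0.0678). Brd2, Psmb8, Tap2 and Btnl2 were not called, though Tap2 was once the libraries numbered 0 were left out (edgeR adjusted p = 0.0222, log2 0.55). Between pMo and intMo none of the 6 was called by edgeR, in the paired fit too, or by DESeq2, 0 had an unadjusted edgeR p under 0.05 with all 9 libraries, and the median was -0.10. Between pMo and cMo Tap1 (log2 0.59 ± 0.12) and Tap2 (log2 0.57 ± 0.16, lost without cMo 1, cMo 2, pMo 0 or pMo 1 at an edgeR adjusted p of up to 0.0673) were higher, with a median of 0.35.

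**Figure D4:**
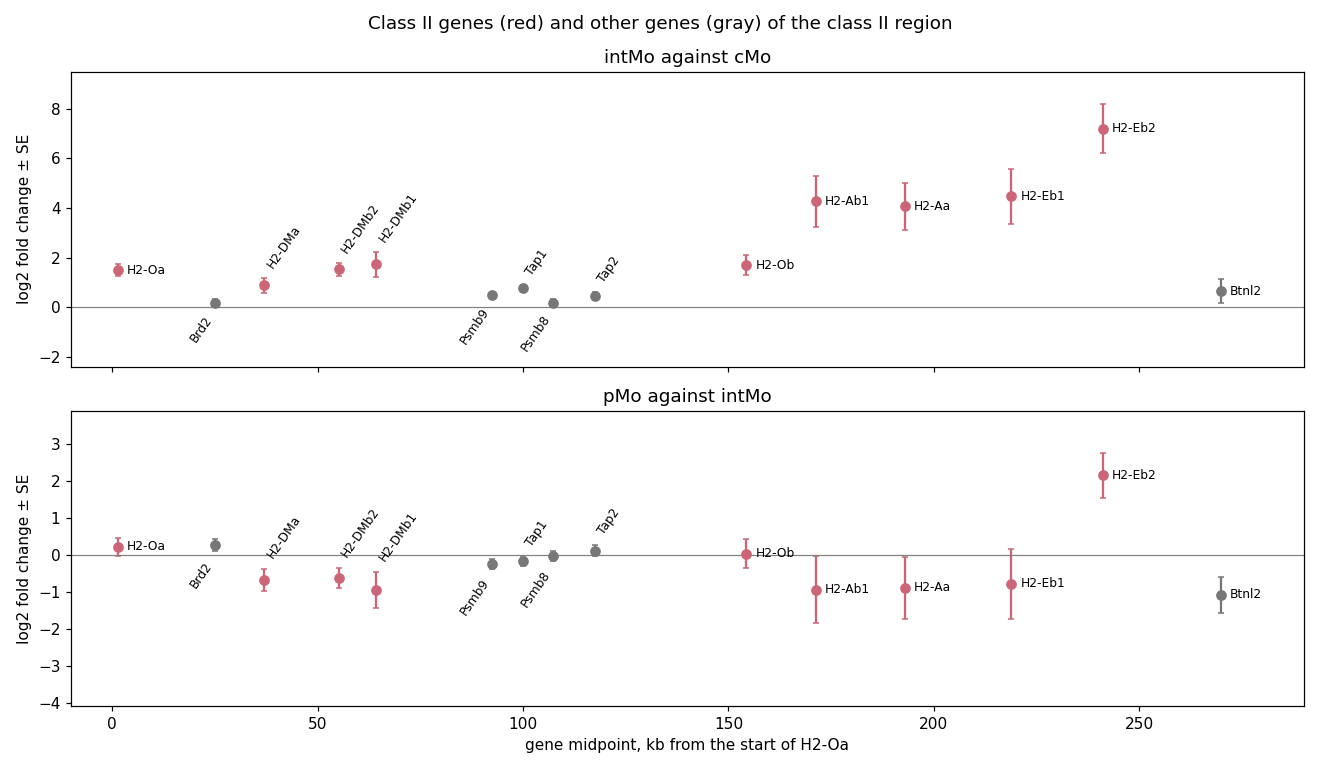
Log2 fold changes with bars of 1 SE for class II genes (red) and the 6 other genes (gray) of the class II region, by the distance of the gene midpoint from the start of H2-Oa in kb. H2-Ab1, H2-Aa, H2-Eb1 and H2-Eb2 have the highest points in intMo against cMo, at 4.07 to 7.20, and H2-Eb2 alone has a point above 1 in pMo against intMo.

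Some factors of the class II promoters and of Ciita were called. Of 12, 3 were higher and 2 lower in intMo than in cMo, where 14% of all genes tested were called higher and the share called lower is not given. The median log2 was 0.06, near the -0.01 over all genes. Rfx5, a DNA-binding subunit of the X box complex, rose by 0.59 ± 0.12 (edgeR adjusted p = 0.00705) from 27.1, 32.3 and 32.1 CPM to 46.3, 45.8 and 45.3 CPM, whereas its partners Rfxap (0.09 ± 0.17) and Rfxank (0.23 ± 0.13) were not called. Irf1, which acts on Ciita downstream of interferon gamma, rose by 1.57 ± 0.20 (edgeR adjusted p = 0.000854). Prdm1, which encodes Blimp-1, known as a repressor of Ciita in plasma cells, rose by 2.73 ± 0.32 (edgeR adjusted p = 0.000607). Nfya and Nfyb, subunits of the Y box factor, fell by 0.39 ± 0.10 and 0.74 ± 0.22 on the log2 scale (edgeR adjusted p = 0.0241 and 0.0386), but the first call ended in 5 and the second in 6 of the 9 fits that lacked 1 library, at up to 0.0856 and 0.0977. Creb1, Nfyc, Spi1, Irf8 and Irf4 were not called, but with libraries 1 and 2 alone Irf4 was lower in intMo (log2 -0.94, edgeR adjusted p = 0.00102) and higher in pMo than in intMo (0.69, 0.00768).

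Between pMo and intMo 1 of the 12 was higher and 0 lower. Spi1, the myeloid factor PU.1, rose by 0.61 ± 0.11 (edgeR adjusted p = 0.013) from 416 to 460 CPM in intMo to 658 to 682 CPM in pMo, a call lost without intMo 1, intMo 2, pMo 1 or pMo 2 at up to 0.068. The paired fit called Spi1 as well and Irf8 lower (log2 -0.53 ± 0.13, edgeR adjusted p = 0.0195). Between pMo and cMo 4 were higher and 0 lower, Rfx5 (log2 0.70 ± 0.12), Irf1 (1.36 ± 0.20), Prdm1 (2.78 ± 0.32) and Spi1 (0.64 ± 0.11). The medians over the 12 were 0.11 in both comparisons.

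Of 5 genes of the interferon gamma receptor and its kinases, 1 was higher in intMo than in cMo, 0 were called between pMo and intMo by edgeR (1 with an unadjusted p under 0.05) or DESeq2, and 3 were higher in pMo than in cMo. Socs1, a feedback inhibitor of the kinases, was the first (log2 1.17 ± 0.37, edgeR adjusted p = 0.0456), at 1.26 to 3.06 CPM in cMo and 3.9 to 6.7 CPM in intMo, and of the 9 fits that lacked 1 library only the fit without intMo 1 kept its call (edgeR adjusted p up to 0.126 in the rest). With libraries 1 and 2 alone Jak2 was the gene called (log2 0.50, edgeR adjusted p = 0.0136) and Socs1 was not (0.70, 0.0754). The paired fit called Ifngr2 (log2 0.36 ± 0.10) and Jak2 (0.38 ± 0.11) higher in pMo than in intMo. Higher in pMo than in cMo were Ifngr1 (log2 0.67 ± 0.18), Jak1 (0.45 ± 0.11) and Jak2 (0.82 ± 0.16). The calls of Ifngr1 and Jak1 were lost without cMo 1, pMo 0 or pMo 1 and without pMo 1, at edgeR adjusted p up to 0.0562 and 0.0501.

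Enzymes that supply peptides or cut the invariant chain split between the subsets. Of 8, 4 were higher in intMo than in cMo and 0 lower, with a median log2 of 0.74. They were Ctss, which makes the last cut of the invariant chain in many antigen-presenting cells (log2 1.09 ± 0.30, edgeR adjusted p = 0.0287, lost without cMo 1, intMo 0 or intMo 1 at up to 0.0695), Ctsl (1.64 ± 0.19, edgeR adjusted p = 0.000661), Ctsb (1.40 ± 0.28, edgeR adjusted p = 0.00752) and the legumain gene Lgmn (1.93 ± 0.43, edgeR adjusted p = 0.0129). Ctsl, a lysosomal protease that cuts the invariant chain in thymic epithelium, had 68.6, 56.5 and 73.5 CPM in cMo, 263, 193 and 164 CPM in intMo and 74, 85.1 and 93.4 CPM in pMo. It thus fell from intMo to pMo (log2 -1.30 ± 0.19, edgeR adjusted p = 0.00676) to levels near those of cMo. Cst3, an inhibitor of such proteases, moved the other way, at 680 to 820 CPM in intMo and 1351 to 1628 CPM in pMo (log2 0.99 ± 0.21, edgeR adjusted p = 0.0319), a call that, of the 9 fits lacking 1 library, only those without cMo 0 or cMo 2 kept (up to 0.135 in the rest). Ctsl and Cst3 were the genes called of the 8 between pMo and intMo, whose median was -0.15. The paired fit called 2 higher and 3 lower, adding Sppl2a (log2 0.48 ± 0.11), Lgmn (-0.57 ± 0.12) and Ifi30 (-0.67 ± 0.17), and with libraries 1 and 2 alone 3 were higher and 2 lower. Between pMo and cMo 5 were higher, Ctsb, Cst3, Sppl2a, Ctss and Lgmn. The calls of the last 3 were lost in 2, 4 and 6 of the fits that lacked 1 library, at edgeR adjusted p up to 0.0562, 0.0855 and 0.129. The gene that was lower was Ifi30, a thiol reductase of endosomes (log2 -0.80 ± 0.23, edgeR adjusted p = 0.0266, lost without cMo 1, cMo 2, pMo 1 or pMo 2 at up to 0.103).

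March1 encodes a ubiquitin ligase that takes class II off the surface, and Cd83 opposes it. Of the 3 genes of this list, March1 and Cd83 were higher in intMo than in cMo (log2 1.04 ± 0.24 and 3.45 ± 0.56, edgeR adjusted p = 0.0132 and 0.00297) and March8 was not called. Cd83 had 1.12, 6.82 and 6.19 CPM in cMo, 74.5, 45.7 and 34.9 CPM in intMo and 135, 156 and 145 CPM in pMo, so its order of subsets differed from that of the classical chains. March1 had 58.7 to 116 CPM in cMo, 175 to 215 CPM in intMo and 150 to 189 CPM in pMo. None of the 3 was called by edgeR between pMo and intMo, 2 had an unadjusted p under 0.05, and DESeq2 called 1, Cd83. Cd83 changed by 1.49 ± 0.51 (edgeR adjusted p = 0.147) in all 9 libraries by 1.91 in libraries 1 and 2 alone and by 1.55 ± 0.25 in the paired fit, and was called in the latter fits. Between pMo and cMo March1 (log2 0.87 ± 0.24, lost without pMo 1 or pMo 2 at an edgeR adjusted p of up to 0.0679) and Cd83 (4.95 ± 0.60) were higher.

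The genes whose pattern over the 9 libraries was most like that of H2-Aa, H2-Ab1, H2-Eb1 and Cd74 were Cxcl16 (Pearson r = 0.995 of log2 CPM), Clec4b1 (0.995), Abcg1 (0.993), Ckb (0.987) and Lgmn (0.987), among 9875 genes whose mean level was 5 CPM or more. The 9 points share the subset differences and the gap between library 0 and the rest, and r describes this pattern without a test. Cxcl16, a chemokine with a membrane-bound form, had 2.34, 13 and 17.1 CPM in cMo, 294, 88.7 and 74 CPM in intMo, and 135, 50.3 and 44 CPM in pMo. Like the classical chains it was highest in intMo library 0 and lowest in cMo library 0. Among the members, r with this profile was 0.990 for Ciita and 0.963 for H2-Ob and lowest for H2-DMa (0.857) and H2-Oa (0.907).

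Markers of other cells moved with these results, and their part in them was not tested. In bulk RNA fewer cells of a type cannot be told apart from less RNA per cell. Of 11 dendritic cell markers, 9 were higher in intMo than in cMo, 5 lower and 0 higher in pMo than in intMo, and 5 higher and 3 lower in pMo than in cMo, and their summed level was 60.4 to 66.6 CPM in cMo, 189 to 282 CPM in intMo and 170 to 335 CPM in pMo. The most abundant was Dpp4, and Cd209a was below 1 CPM in every library. Siglech, a marker of plasmacytoid cells, had the largest fall of the list, from 33.3 to 36.3 CPM in intMo to 0.437 to 0.986 CPM in pMo. Zbtb46, Ccr7, Batf3 and Dpp4 had positive log2 changes from intMo to pMo (0.55, 0.44, 1.01 and 0.75), not called with all 9 libraries. Between pMo and intMo the calls of Flt3, Cd209a and Itgae were lost without single libraries (edgeR adjusted p up to 0.113). The paired fit called 7 dendritic cell markers lower and 2, Batf3 and Dpp4, higher. Of 7 B cell markers, Cd79a, Pax5 and Fcmr were below 1 CPM in every library, with Fcmr at 0. Of the 5 B cell markers tested 3, Ms4a1, Ebf1 and Cd22, were higher in intMo than in cMo and 2, Ebf1 and Cd22, in pMo than in cMo. The call of Ms4a1 (edgeR adjusted p = 0.0493) was lost in each of the 9 fits that lacked 1 library, at up to 0.162. Between pMo and intMo edgeR called 0 of them (2 with an unadjusted p under 0.05) DESeq2 called 1 and the paired fit called 2 higher, Cd79a and Cd22, and the summed level of the list, 24.9 to 31.2 CPM in cMo, 153 to 348 CPM in intMo and 484 to 671 CPM in pMo, was mostly Cd22.

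All 7 stromal markers tested of 9 were higher in intMo and in pMo than in cMo. None was called between pMo and intMo by edgeR with all 9 libraries (0 with an unadjusted p under 0.05), DESeq2 or the paired fit. With libraries 1 and 2 alone 1 of them, Pdgfrb, was higher in pMo than in intMo (log2 0.71, edgeR adjusted p = 0.0374). The sum of the stromal markers was 7.81 to 15.4 CPM in cMo, 159 to 525 CPM in intMo and 175 to 359 CPM in pMo. The highest sums were those of intMo library 0 and pMo library 0, while Dcn was at 0 and Lum below 1 CPM in all 9 libraries, and the most abundant was Cxcl12. Of 6 macrophage markers 5 were higher in intMo than in cMo and in pMo than in cMo, and none was called between pMo and intMo by edgeR with all 9 libraries, where 5 had an unadjusted p under 0.05, while DESeq2 called 5 lower in pMo. All 6 were called lower in pMo in both fits that called 8 class II members lower, with a median log2 of -1.82 in the paired fit and -1.75 with libraries 1 and 2 alone. Their sum was 222 to 798 CPM in cMo, 3334 to 6339 CPM in intMo and 1351 to 2097 CPM in pMo, with C1qb most abundant, and as for the classical chains the sum of library 0 was lowest in cMo and highest in intMo and pMo. Of 12 monocyte genes 7 were higher and 3 lower in intMo than in cMo, 6 higher and 0 lower in pMo than in intMo (7 and 2 in the paired fit and with libraries 1 and 2 alone), and 9 higher and 2 lower in pMo than in cMo.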

How the data were processed

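The authors deposited a table of estimated counts per gene with 1 column for each of 9 RNA sequencing libraries, made with kallisto 0.46.1 and mm10 per the submitters' processing notes. Per the labels' protocols, RNA was taken up in RNAzol and libraries were made with a stranded NEBNext kit. No source used here gives the transcript set, the strand setting or the summing to genes. Of the values per library, 25.6% to 27.5% were not whole, and all were rounded.

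Of 46517 Ensembl IDs, 46005 matched a symbol of GENCODE M21 and 512 did not. Genes were kept by edgeR's filterByExpr by subset (14059 genes) and scaled by TMM. The 9 libraries were fitted together by subset with edgeR 4.0.16 in R 4.3.3 (quasi-likelihood F test, robust), with Benjamini-Hochberg adjustment over all genes tested and a threshold of 0.05. The ratio of H2-O to H2-DM was tested by an exact permutation over libraries. The steps were tested on simulated data. CPM uses TMM library sizes. Alternatives were RLE and upper quartile scaling, no filter, at least 1 CPM, DESeq2 1.42.0, a block for the library number, each library left out in turn, libraries 1 and 2 alone, and, added after the data were seen, the 6 intMo and pMo libraries with the number as a block (the paired fit).

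Library numbers are shared between subsets. Deviations from the subset means correlated between same-numbered libraries at 0.588, 0.3 and 0.274 for intMo with pMo, at 0.066, -0.143 and -0.069 for cMo with intMo, and at 0.179, -0.016 and 0.23 for cMo with pMo, so by the rule that every correlation exceed 0.1 the numbers pair intMo with pMo alone. Across numbers, intMo 1 with pMo 2 gave 0.403 and intMo 2 with pMo 1 gave 0.279. Different-numbered intMo and pMo libraries that included number 0 gave -0.487 to -0.378. These correlations thus set number 0 apart and do not tell numbers 1 and 2 from each other.

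The members, the gene lists (other class II genes, region genes, promoter factors, interferon gamma receptor, peptide supply, turnover, and markers of dendritic cells, B cells, stroma, macrophages and monocytes), the tests and the use of libraries 1 and 2 alone were chosen with earlier results of these data known. A gene of the promoter factors and a gene of the B cell markers are not reported here and are left out of those lists' counts. The named genes are the members, genes of these lists, and the 5 protein coding genes of at least 5 mean CPM whose log2 CPM (prior count 2) correlated best with the mean standardised profile of H2-Aa, H2-Ab1, H2-Eb1 and Cd74. Promoter sequences and starts are those of RefSeq.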

Additional observations from a re-analysis of the deposited data

How the results depend on the processing

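Single member changes kept their direction and side of the threshold in 144 of 159 alternatives for intMo against cMo (11 lost the call, 4 gained it), 144 of 169 for pMo against intMo (16 gained it) and 124 of 159 for pMo against cMo (32 lost it). The count of 9 members called in intMo against cMo was 5 without a filter on low counts and 7 to 10 with 1 library left out. The count of 0 in pMo against intMo was 8 with libraries 1 and 2 alone, 8 with the replicate block on the intMo and pMo libraries alone, which was added after the data were seen, and 0 with any 1 library left out. The count of 8 in pMo against cMo was 3 without a filter and 2 to 8 with 1 library left out, and the count of 8 for any subset was 3 and 2 to 10. Shares of all genes called without a filter, or with 1 library left out, are not given. With the library number as a replicate block over all 9 libraries the counts were 7 and 0 in intMo against cMo and pMo against intMo, 3 in pMo against cMo and 3 for any subset. The log2 ratio of H2-O to H2-DM, at 0.36, 0.90 and 1.26, cannot change with a block in this balanced design. That ratio ran from 0.30 to 0.46, 0.80 to 0.95 and 1.21 to 1.34 with 1 library left out. DESeq2 gave no adjusted p for H2-Eb1. Changes of sign, none called, were those of H2-Eb1 in pMo against intMo (-2.23 to 0.01 with 1 library left out, above 0 without intMo 0), H2-Oa (-0.03 to 0.45, below 0 without pMo 0) and H2-Ob (-0.52 to 0.28, below 0 without intMo 1, intMo 2 or pMo 0, -0.02 with upper quartile scaling and with the block, -0.08 with the block on intMo and pMo alone and -0.28 with libraries 1 and 2 alone), and in pMo against cMo those of H2-DMa (-0.03 to 0.37, below 0 without pMo 0, and -0.22 with libraries 1 and 2 alone) and H2-DMb1 (-0.12 with libraries 1 and 2 alone). The cause was not tested. Depth limits H2-Eb2 in cMo and H2-Ea-ps in all libraries.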
